A study of Mus musculus with 14 samples.

Results

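The genes described here encode shelterin, the protein complex that coats mammalian chromosome ends. They are the 7 genes Terf2, Terf1, Terf2ip, Tinf2, Acd, Pot1a and Pot1b, chosen by name from the 20492 gene symbols in the deposited tables. Each table lists them in 10 of its 26348 coding-sequence rows, where a row holds the reads assigned to 1 annotated protein-coding form of a gene or to several forms with the same coding sequence. Total RNA came from cortex and hippocampus of C57BL/6 mice aged 3 months. The control group had 4 cortex and 3 hippocampus samples, and the group labelled as depleted of TRF2, the protein encoded by Terf2, had 3 samples of each tissue. A further depleted sample carries labels of both tissues and was left ungrouped. Because the authors pooled the samples, it may be in the depleted values of either tissue, so that 3 or 4 samples stand behind them. The design text calls the cohorts wild type and TRF2-DCX-cre, so that a Cre recombinase under the promoter of Dcx, which young migrating neurons express, is named as the driver. The labels state neither the Terf2 allele nor whether the control mice carried it or the Cre. The hippocampus table holds a condition called DKO that no label describes. Its genotype, age and number of samples are therefore not stated here, and its values are given as those of a condition of that name.

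Shelterin binds the repeats at chromosome ends and keeps the cell from treating those ends as broken DNA. TRF1 (gene Terf1) and TRF2 (Terf2) bind the double-stranded repeats directly, RAP1 (Terf2ip) is held there by TRF2, and TIN2 (Tinf2) joins TRF1 and TRF2 to TPP1 (Acd), which brings in POT1 on the single-stranded overhang. Mice have a pair of POT1 genes, Pot1a and Pot1b, where humans have 1. Loss of TRF2 is known to switch on the ATM damage kinase at chromosome ends and to let ends be joined together in dividing cells.

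Both tables give 1 FPKM value per row and condition, a fragment count corrected for length and library size, which the authors pooled over samples. No spread between samples can be computed from them, the read depth is unknown, and the only test that uses the samples is the authors' own Cuffdiff test. Where a level is given for a gene it is the sum of FPKM over its rows, and the sum has no test. Rows with a q of at most 0.05 in the deposited tables were counted as called.

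Terf2 and Terf1 are the members with several rows, and how their annotated forms differ bears on how their values divide. In the GENCODE annotation of GRCm38, the assembly that mm10 names, Terf2 has 4 protein-coding forms and Terf1 has 2. The longer Terf1 form has 10 coding exons and 1263 coding bases, and the shorter has 9 exons and 1176 bases. They differ by 1 exon of 87 bases on chromosome 1 from 15815886 to 15815972, shown in capitals in the first of the sequences that follow, with the neighbouring exons in lower case, 5′ to 3′ on the plus strand. The second sequence is the junction of the shorter form, in which that exon is missing.
Terf1-203: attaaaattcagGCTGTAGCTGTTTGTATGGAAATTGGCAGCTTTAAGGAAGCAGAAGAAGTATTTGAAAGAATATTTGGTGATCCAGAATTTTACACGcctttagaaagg
Terf1-201: attaaaattcagcctttagaaagg

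For Terf2 the form with 10 coding exons (1620 bases, Terf2-204) and the form with 11 (1428 bases, Terf2-201) differ behind the sixth exon. The latter has a shorter seventh exon and an added exon of 77 bases on chromosome 8 from 107072722 to 107072798, in capitals in the first of the next sequences, read 5′ to 3′ on the minus strand. The second is the junction of the 10-exon form at the same place. The third is the end of a form with 7 coding exons (1410 bases, Terf2-203), which reads on for 70 coding bases (capitals, 107076540 to 107076609) and stops, so that it lacks the last 3 coding exons of the 10-exon form. The remaining form, Terf2-202, differs from the 10-exon form in having 1623 coding bases, with a seventh exon that starts earlier.
Terf2-201: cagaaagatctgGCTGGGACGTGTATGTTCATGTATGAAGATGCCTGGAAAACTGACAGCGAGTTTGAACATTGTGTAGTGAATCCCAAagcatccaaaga
Terf2-204: gaagaagcccaaagcatccaaaga
Terf2-203: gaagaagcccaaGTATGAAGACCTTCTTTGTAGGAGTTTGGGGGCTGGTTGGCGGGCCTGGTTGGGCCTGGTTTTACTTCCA
The deposited tables do not say which form each row stands for, so the 3 Terf2 rows and the 2 Terf1 rows are named by their identifiers. Outside these stretches the forms of a gene share most of their coding bases, and reads from the shared part are divided between rows by the authors' counting.

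**Figure D1:**
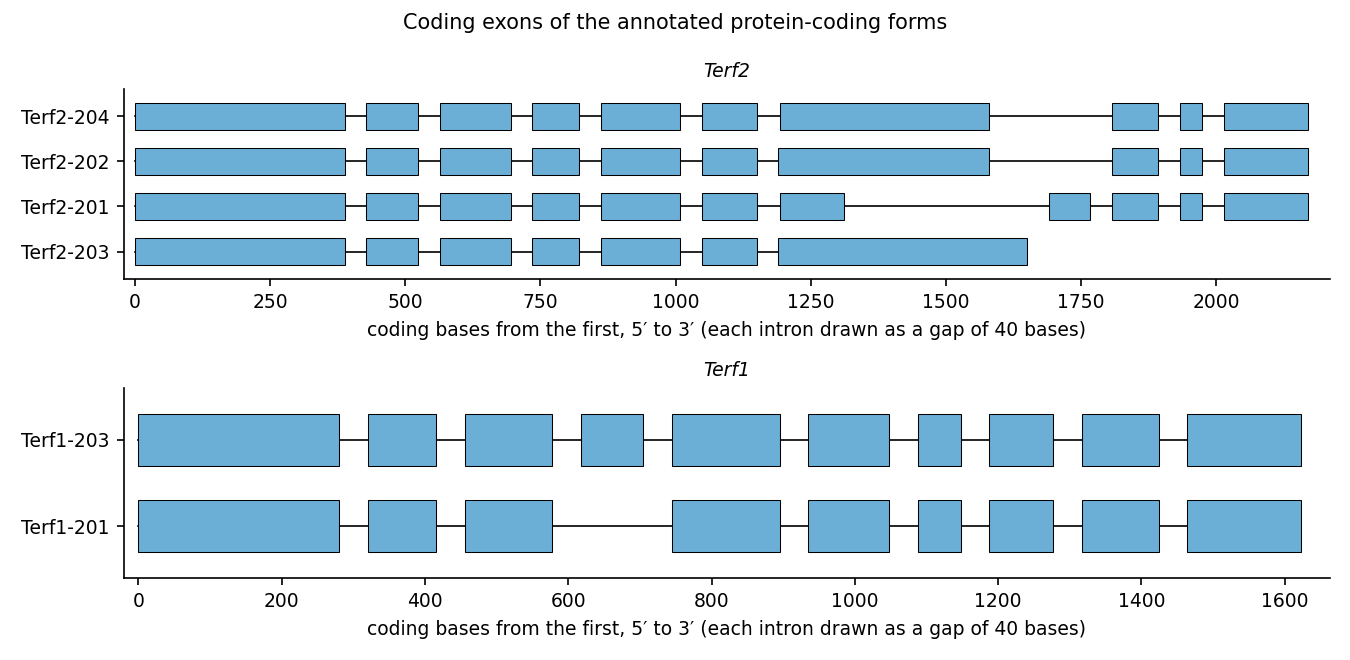
Coding exons (boxes, widths to scale in bases) of the 4 protein-coding Terf2 forms and the 2 Terf1 forms in GENCODE, from the first coding base on the left, with each intron drawn as a gap of fixed width. The Terf2-203 form ends in the seventh exon, and Terf1-201 lacks 1 exon of Terf1-203.

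Terf2, the targeted gene, lies on chromosome 8 from 107069402 to 107096685 (mm10) in the cortex table and from 107069400 to 107096545 in the hippocampus table. Its summed level was 3.59 FPKM in control cortex and 0.202 FPKM in TRF2-depleted cortex, which is 5.63% of control and a log2 ratio of -4.15. In hippocampus the sum was 2.01 FPKM in control, 0.883 FPKM in the TRF2-depleted group (43.9% of control, log2 ratio -1.19) and 0.753 FPKM in DKO (37.4% of control, log2 ratio -1.42). Terf2 was thus lower than control in all 3 conditions, with the lowest value in depleted cortex. In bulk tissue, fewer cells that express a gene and less RNA per cell cannot be told apart. The remaining Terf2 level is that of the whole tissue.

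None of these differences has a passing test. In cortex the authors tested 1 of the 3 Terf2 rows, P23587, at 3.11 FPKM in control and 0.168 FPKM in depleted cortex, with p = 0.105 and q = 0.576 per the authors' deposited table. Row P23586 stood at 0.480 and 0.0341 FPKM and row P23588 below 0.001 FPKM in both conditions per the authors' deposited table, and neither was tested. In hippocampus the authors tested none of the 3 rows in any comparison. The highest of them was 1.04 FPKM, whereas each row tested between control and depleted hippocampus reached at least 1.49 FPKM in 1 of the conditions. A large ratio with a p above 0.05 was usual in these tables. Of 53 tested cortex rows that were at least 8-fold lower in the depleted group, 5 had an unadjusted p under 0.05 and 1 was called, and their median p was 0.195 per the authors' deposited table. Of these 53 rows, 44 belonged to genes with several rows.

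The size of the Terf2 ratio can be set beside all genes, as a description. With 0.1 FPKM added to both values, the Terf2 log2 ratio was -3.61 in cortex, -1.10 in depleted hippocampus and -1.31 in DKO. Among 10786 genes with a mean of at least 1 FPKM over control and depleted cortex, 6 (0.0556%) had a lower ratio than Terf2. In hippocampus, 179 of 10897 genes (1.64%) had a lower ratio between depleted and control, and 104 of 10939 (0.951%) between DKO and control. A minimum on the mean drops genes of low level that are near 0 in 1 condition, and with a minimum of 1 FPKM in control alone the shares were 0.204%, 2.23% and 1.39%. Between DKO and TRF2-depleted hippocampus the unadjusted log2 ratio of summed Terf2 was -0.23, or 0.853 times the depleted level, with no test. The cortex and hippocampus tables were normalised separately, and whether the Terf2 ratio differs between tissues was not tested.

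**Figure D2:**
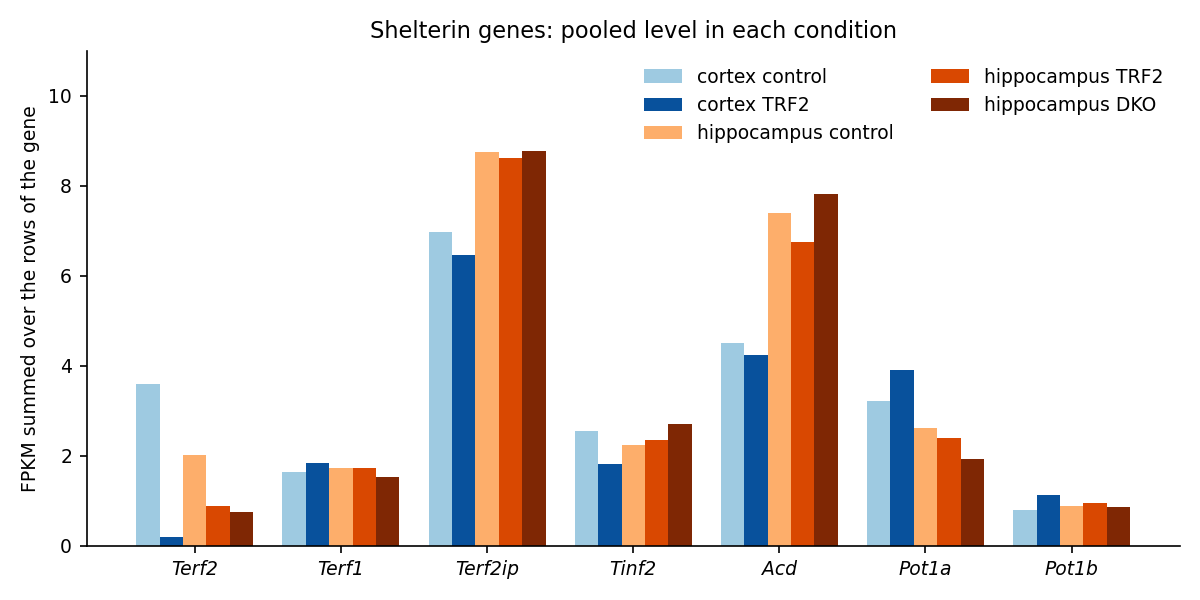
Summed FPKM (vertical axis, linear from 0) of each shelterin gene in the 5 conditions, 1 pooled value per bar and so no error bar. Terf2 is at 0.202 FPKM in TRF2-depleted cortex and at 0.883 and 0.753 FPKM in the TRF2-depleted and DKO hippocampus, while the bars of the other 6 genes are closer together within a tissue.

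The Terf2 rows did not keep 1 division of the total. In control cortex P23587 held 86.6% of the summed FPKM and P23586 held 13.4%, and in depleted cortex the shares were 83.0% and 16.9%. In control hippocampus P23586 held 51.7%, P23588 25.7% and P23587 22.6%. These shares were 59.5%, 20.2% and 20.2% in depleted hippocampus. In DKO, P23587 stood at 0.000169 FPKM per the authors' deposited table, P23586 held 52.1% and P23588 held 47.9%. P23588 was therefore at 0.361 FPKM in DKO and 0.179 FPKM in depleted hippocampus per the authors' deposited table, although the sums of the gene were 0.753 and 0.883 FPKM. All rows of Terf2 were lower than control in the depleted and the DKO groups. The row identifiers recur in both tables but carry the same symbol for 26105 of 26348, so a row need not stand for the same coding sequence in both tissues.

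Terf1, the other double-strand repeat binder (chromosome 1 from 15805646 to 15844052, mm10), differed between conditions in its rows more than in its sum. Its sum was 1.65 FPKM in control and 1.83 FPKM in depleted cortex (log2 ratio 0.15). In hippocampus it was 1.72 FPKM in control, 1.73 FPKM in the depleted group (log2 ratio 0.01) and 1.52 FPKM in DKO (log2 ratio -0.18). The sum was thus at 111% of control in depleted cortex and at 101% and 88.4% of control in the hippocampus conditions. Row P26 alone stood at 1.70 FPKM in control, 1.24 FPKM in depleted and 0.844 FPKM in DKO hippocampus per the authors' deposited table, and its log2 ratio was -1.01 for DKO. Row P27 went the other way, at 0.0141, 0.485 and 0.674 FPKM per the authors' deposited table, and held 0.821%, 28.1% and 44.4% of the sum. The authors tested P26 in both comparisons with control and P27 in none. P26 had p = 0.367 and q = 0.901 for the depleted group and p = 0.123 and q = 0.886 for DKO per the authors' deposited table. In cortex P26 held 70.4% of the sum in control and 77.4% in the depleted group, and neither row was tested.

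**Figure D3:**
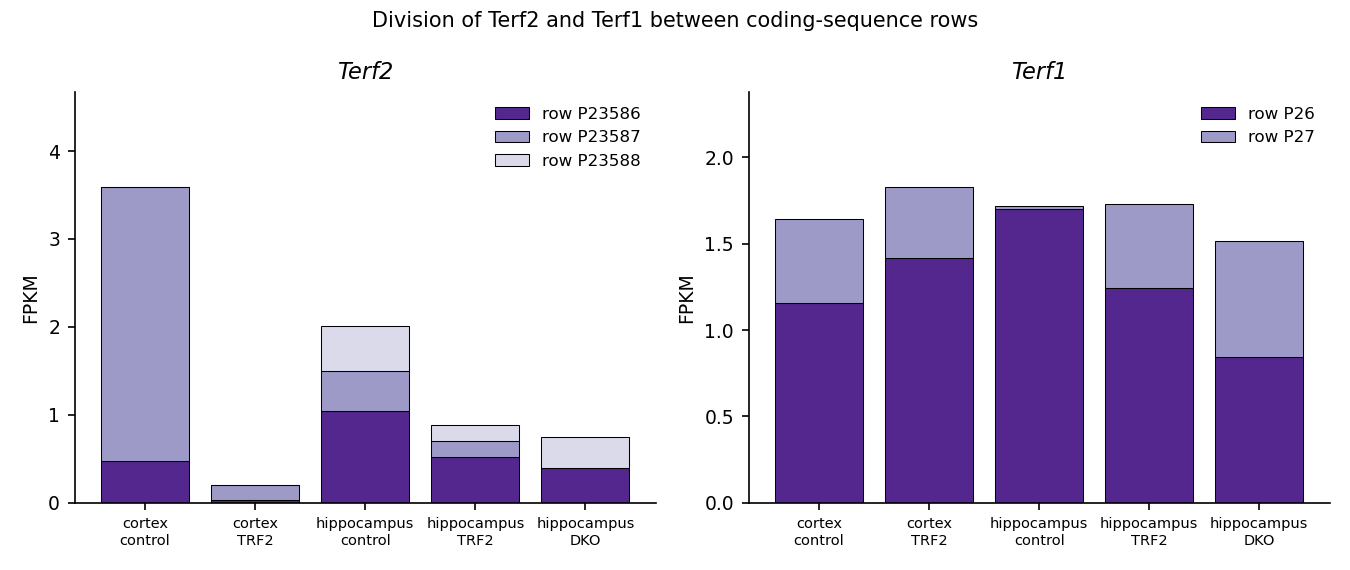
FPKM of each coding-sequence row of Terf2 (left) and Terf1 (right), stacked so that the bar height is the sum for the gene, in the 5 conditions. The Terf1 bars have similar heights (1.52 to 1.83 FPKM) but row P27 goes from 0.0141 FPKM in control hippocampus to 0.674 FPKM in DKO, while every Terf2 row is lower than its control.

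Terf2ip encodes RAP1, the partner that TRF2 carries to the chromosome end, and was the most abundant shelterin transcript in each of the 5 conditions. It lies on chromosome 8 from 112011359 to 112020528 (mm10) and has 1 row. The authors' deposited table gives 6.98 FPKM in control and 6.46 FPKM in depleted cortex (log2 ratio -0.11, p = 0.363, q = 0.771). The authors' deposited table gives 8.76 FPKM in control, 8.61 FPKM in depleted and 8.77 FPKM in DKO hippocampus. The hippocampus log2 ratios to control were -0.02 (p = 0.866) and 0.00 (p = 0.984) per the authors' deposited table. Terf2 in sum was 51.5% of Terf2ip in control and 3.13% in depleted cortex, and 23.0%, 10.3% and 8.59% of it in control, depleted and DKO hippocampus.

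Tinf2, the bridge between TRF1, TRF2 and TPP1, lies on chromosome 14 from 55679080 to 55681817 (mm10). It had the smallest p of the members in cortex, with 2.54 FPKM in control and 1.82 FPKM in the depleted group per the authors' deposited table (log2 ratio -0.48, p = 0.0785, q = 0.535). In hippocampus the authors' deposited table gives 2.25 FPKM in control, 2.35 FPKM in depleted (p = 0.836) and 2.70 FPKM in DKO (p = 0.345). The value was thus below control in depleted cortex and above it in both hippocampus conditions, and none of the 3 differences passed.

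Acd encodes TPP1, which carries POT1 and also brings telomerase to the chromosome end. The authors' deposited table gives 4.49 FPKM in control and 4.24 FPKM in depleted cortex (log2 ratio -0.09, p = 0.852). In hippocampus the authors' deposited table gives 7.39 FPKM in control, 6.75 FPKM in depleted (log2 ratio -0.13, p = 0.692) and 7.81 FPKM in DKO (log2 ratio 0.08, p = 0.765). Its deposited locus, chromosome 8 from 105690906 to 105701095 (mm10), also covers 7282 bases of Carmil2, a gene on the opposite strand. No Acd coding base of the GENCODE annotation lies in that stretch (0 of 1248). Of the other members, the Tinf2 locus overlaps Gmpr2 on the opposite strand by 121 bases, which hold none of the annotated Tinf2 coding bases. Gmpr2 also covers 84 coding bases of the form Tinf2-205, from 55677198 to 55677281, which lie outside the deposited locus. The Terf2ip locus holds Gm6793 on the opposite strand, which covers none of its coding bases. The Pot1b locus holds an snRNA gene and a processed pseudogene on the opposite strand, also outside its coding bases. The Terf2 locus holds the miRNA gene Mir7075 (82 bases) on the same strand, again outside the coding bases. No source used here says whether reads were counted by strand, or whether reads outside coding bases were counted. Reads from such shared stretches therefore cannot be told apart.

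Pot1a and Pot1b bind the single-stranded overhang. POT1a is known to hold back the ATR kinase there, and POT1b to limit the trimming of the other strand. Pot1a (chromosome 6 from 25743735 to 25809226 in the cortex table, mm10) stood at 3.22 FPKM in control cortex and 3.90 FPKM in depleted cortex per the authors' deposited table (log2 ratio 0.28, p = 0.127, q = 0.603). In hippocampus the authors' deposited table gives 2.62 FPKM in control, 2.40 FPKM in depleted (log2 ratio -0.13, p = 0.800) and 1.93 FPKM in DKO (log2 ratio -0.44, p = 0.571). Pot1a therefore lay above control in cortex and below it in hippocampus, with none of the 3 passing. Pot1b (chromosome 17 from 55652025 to 55712628, mm10) was the least abundant member in both control tissues and was tested in no comparison. The authors' deposited table gives it at 0.798 FPKM in control and 1.12 FPKM in depleted cortex, and at 0.893, 0.938 and 0.861 FPKM in control, depleted and DKO hippocampus. The Pot1a and Pot1b coding sequences of 1920 bases each were identical at 78.8% of 1917 aligned bases. Their longest identical run was 41 bases and they shared 0 stretches of 50 bases, so a read that long from coding sequence would differ between them. No source used here gives the read length.

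Across the members, 5 of the 7 had a tested row in cortex and 5 of the 7 in each hippocampus comparison with control, and they were not the same 5, since Terf2 was tested in cortex and Terf1 in hippocampus. The count called was 0 of 5 rows in cortex, where 0.304% of 9536 tested rows were called, and 0 of 5 in depleted hippocampus, against 0.163% of 11054. It was 0 of 5 for DKO against control (0.181% of 11030 rows) and 0 of 4 for DKO against the depleted group (0.154% of 11017 rows). At an unadjusted Cuffdiff p under 0.05 the count was also 0 in each of the 4, where 6.24%, 4.89%, 6.71% and 4.79% of tested rows passed in the same order. The counts of 0 lie near these background shares and set the members apart in neither direction. The median log2 ratio of the tested member rows was -0.11 in cortex, -0.13 in depleted hippocampus and 0.00 in DKO, beside -0.03, 0.00 and 0.01 over all tested rows. A p above the threshold does not show that a level was the same, and without a spread between samples no interval can be given.

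The 6 members other than Terf2 were split evenly in direction, with 3 lower and 3 higher in sum in each comparison with control. Their log2 ratios ran from -0.48 (Tinf2) to 0.49 (Pot1b) in cortex, from -0.13 (Acd) to 0.07 (Pot1b) in depleted hippocampus and from -0.44 (Pot1a) to 0.27 (Tinf2) in DKO. The middle 90% of genes with a mean of at least 1 FPKM over the 2 conditions ran from -0.54 to 0.51, from -0.61 to 0.60 and from -0.54 to 0.65 in the same order, and these 6 members lay within it. Pot1b is itself below that minimum in each comparison and is not among those genes. With a minimum in control alone the cortex range ended at 0.45. Pot1b lay beyond that end at 0.49, but below it at 0.44 with 0.1 FPKM added. Summed over the 6, the level was 19.7 FPKM in control and 19.4 FPKM in depleted cortex. In hippocampus it was 23.6 FPKM in control, 22.8 FPKM in the depleted group and 23.6 FPKM in DKO.

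**Figure D4:**
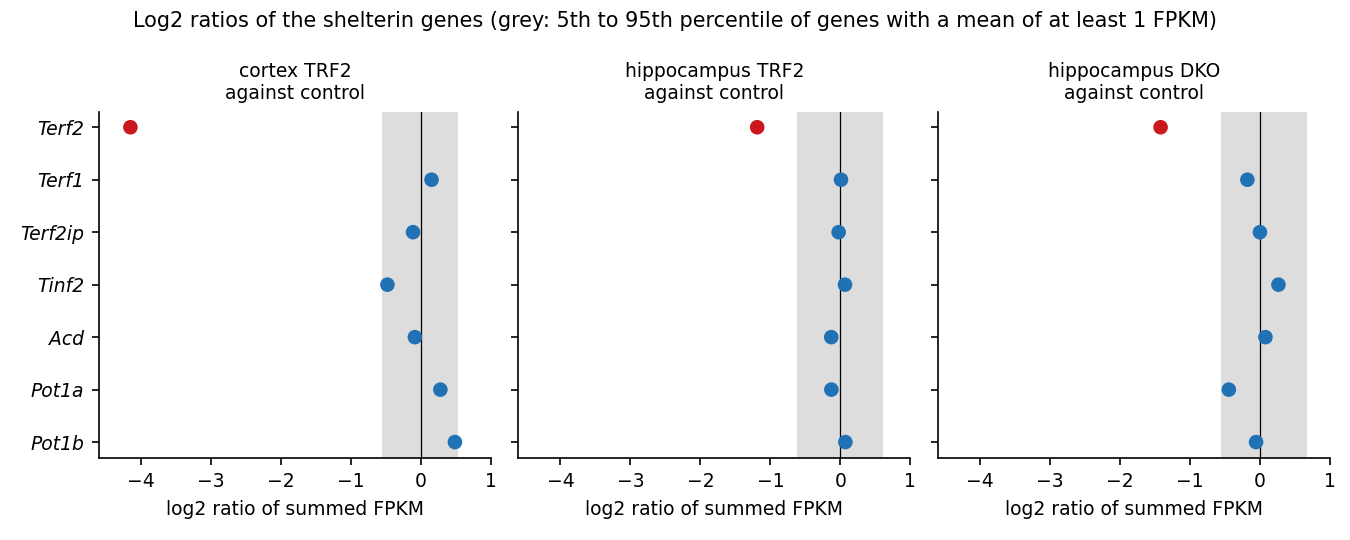
Log2 ratio of summed FPKM to control for each shelterin gene in TRF2-depleted cortex, TRF2-depleted hippocampus and DKO hippocampus, with the grey band holding the middle 90% of genes with a mean of at least 1 FPKM over the 2 conditions. Terf2 (red) lies at -4.15, -1.19 and -1.42, outside the band in each panel, and the other members lie inside it, with Pot1b, whose own level is below that minimum, at 0.49 in cortex.

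The order of levels within a condition is per length, as FPKM is. In control cortex it ran from Terf2ip (6.98 FPKM) through Acd (4.49), Terf2 (3.59), Pot1a (3.22), Tinf2 (2.54) and Terf1 (1.65) to Pot1b (0.798 FPKM). In control hippocampus it was Terf2ip (8.76 FPKM), Acd (7.39), Pot1a (2.62), Tinf2 (2.25), Terf2 (2.01), Terf1 (1.72) and Pot1b (0.893 FPKM). Terf2 thus ranked 3 among the 7 members in control cortex and 5 in control hippocampus, and it was last in depleted cortex, depleted hippocampus and DKO. Which neighbours in these orders differ beyond the spread of samples cannot be said from pooled values. Set side by side, with the caveat that the tables were normalised separately, control hippocampus had 1.64 times the Acd level of control cortex and 0.560 times its Terf2 level. The 5 remaining members lay between 0.813 times (Pot1a) and 1.25 times (Terf2ip), and the median log2 ratio of hippocampus to cortex over all genes with at least 1 FPKM in both was 0.10.

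Genes that act with shelterin were read from 3 lists. Of 17 telomere accessory factors, which resolve, process or modify shelterin-bound ends, 8 had a tested row in cortex and 10 in each hippocampus comparison, and 0 were called in any of the 4 comparisons, with 0 also at an unadjusted Cuffdiff p under 0.05. Over all tested rows 0.154% to 0.304% were called and 4.79% to 6.71% had such a p, so that counts of 0 or 1 in lists of this size lie near the background. Their median log2 ratio was -0.02 in depleted cortex and 0.00 in depleted hippocampus, and -0.07 in DKO, beside -0.03, 0.00 and 0.01 over all tested rows. In DKO 8 of 10 rows were lower than control, where 48.1% of all tested rows were, and the median over summed genes was -0.19. In cortex the smallest p belonged to Ercc1, a partner of the flap nuclease that cuts unprotected overhangs (row P20287, 4.51 and 3.25 FPKM, p = 0.197), and to Gnl3, nucleostemin (2.49 and 4.64 FPKM, p = 0.225), per the authors' deposited table. Ercc1 also had the smallest p in depleted hippocampus (6.55 and 4.06 FPKM, p = 0.0716), followed by Ercc4, the nuclease itself (2.03 and 2.42 FPKM, p = 0.150), per the authors' deposited table. Ercc1 has 2 rows, and the log2 ratio of its sum was -0.34 in cortex and -0.66 in depleted hippocampus, where that of the tested row was -0.47 and -0.69. For DKO against control they were the tankyrase Tnks2 (20.9 and 16.4 FPKM, p = 0.0692) and the Ku subunit Xrcc6 (2.36 and 1.23 FPKM, p = 0.101), per the authors' deposited table. The same 2 genes led DKO against the depleted group (p = 0.0553 and p = 0.0797) per the authors' deposited table.

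Of 11 genes of telomerase and of the CST complex, which refills the strand opposite the overhang, 6 had a tested row in cortex and 8 in each hippocampus comparison, and 0 were called. At an unadjusted Cuffdiff p under 0.05 there was 1 in depleted cortex, 1 in depleted hippocampus and 0 in both DKO comparisons, where 6.24%, 4.89%, 6.71% and 4.79% of all tested rows passed. Both were Gar1, a protein of the telomerase ribonucleoprotein, which lay below control in cortex and above it in hippocampus: 3.00 and 2.06 FPKM in control and depleted cortex (log2 ratio -0.54, p = 0.0171, q = 0.314) and 2.86 and 4.38 FPKM in hippocampus (log2 ratio 0.62, p = 0.0194, q = 0.775) per the authors' deposited table. Its DKO level was 3.19 FPKM, against the depleted group at p = 0.0623 per the authors' deposited table. Nop10, of the same particle, had the second smallest p with 27.5 and 22.4 FPKM in cortex (p = 0.0640) and 24.0 and 21.2 FPKM in hippocampus (p = 0.327) per the authors' deposited table. For DKO against control these were the CST subunit Ten1 (7.37 and 11.6 FPKM, p = 0.171) and Obfc1, which encodes the CST subunit STN1 (2.80 and 2.40 FPKM, p = 0.406), per the authors' deposited table. Dkc1, dyskerin, was second for DKO against the depleted group (1.69 and 2.81 FPKM, p = 0.228) per the authors' deposited table. Over rows the list medians were -0.14, -0.03 and 0.11 for depleted cortex, depleted hippocampus and DKO against control. Over summed genes they were -0.14, 0.07 and 0.16, beside -0.03, 0.00 and 0.01 over all tested rows.

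Of 19 genes that signal or join unprotected ends, 10 had a tested row in cortex and 12 in each hippocampus comparison, and 0 were called. The smallest p in cortex was that of H2afx, the histone that ATM phosphorylates at breaks (11.1 and 8.90 FPKM, p = 0.0347, q = 0.412), followed by Topbp1, an activator of ATR (2.66 and 1.44 FPKM, p = 0.320), per the authors' deposited table. In depleted hippocampus they were Rad50, of the sensor complex that activates ATM (2.23 and 1.60 FPKM, p = 0.0197, q = 0.779), and Atm itself (1.68 and 2.03 FPKM, p = 0.0830), per the authors' deposited table. For DKO against control they were Prkdc, the DNA-dependent kinase of end joining (2.15 and 1.61 FPKM, p = 0.0160, q = 0.734), and Rad50 again (1.77 FPKM in DKO, p = 0.0714), per the authors' deposited table. DKO against the depleted group was led by Atm (p = 0.145) and the ubiquitin ligase Rnf8 (p = 0.146) per the authors' deposited table. At an unadjusted Cuffdiff p under 0.05 there was 1 member in each comparison with control and 0 in DKO against the depleted group, with the same background shares as above. More rows were lower than higher in each comparison with control, 7 of 10 in cortex, 9 of 12 in depleted hippocampus and 9 of 12 in DKO, where 55.6%, 49.8% and 48.1% of all tested rows were lower. The list medians were -0.06, -0.15 and -0.05 over rows and -0.02, -0.10 and -0.03 over summed genes, beside -0.03, 0.00 and 0.01 over all tested rows, and this difference in direction was not tested. Comparisons within the hippocampus share their control or depleted samples, so their values are not independent of each other.

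To see which genes have a pattern like that of Terf2, all 10167 genes with at least 1 FPKM in both control tissues were ranked by their distance to it over the 3 log2 ratios to control, after adding 0.1 FPKM. The minimum is on the controls alone, so it keeps genes that are near 0 elsewhere. This measure rests on 3 ratios of pooled values, of which 2 share a control. The nearest were BC068157 at a distance of 0.744, Fat1 (a large atypical cadherin) at 0.955, Nlgn2 (a postsynaptic adhesion protein of inhibitory synapses) at 0.997, Crebrf at 1.04 and Map7 (a microtubule-binding protein) at 1.23. BC068157 stood at 1.27 and 0.0649 FPKM in control and depleted cortex and at 1.24, 0.643 and 0.631 FPKM in control, depleted and DKO hippocampus per the authors' deposited table. None of its comparisons was tested by the authors. Fat1 was tested in cortex at 2.57 and 0.136 FPKM with p = 0.135 and q = 0.611 per the authors' deposited table. Crebrf was tested there at 4.98 and 0.714 FPKM with p = 0.296 per the authors' deposited table. Nlgn2 was tested in depleted hippocampus at 3.41 and 3.00 FPKM with p = 0.868 per the authors' deposited table. Its log2 ratio there was -0.18 with 0.1 FPKM added, beside -1.10 for Terf2. Those of BC068157, Fat1, Crebrf and Map7 were -0.85, -0.59, -1.47 and -0.83. In DKO the ratios of the 5, by distance, were -0.88, -0.51, -1.67, -1.19 and -0.90, beside -1.31 for Terf2. None of the 5 had a called row in any comparison.

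**Figure D5:**
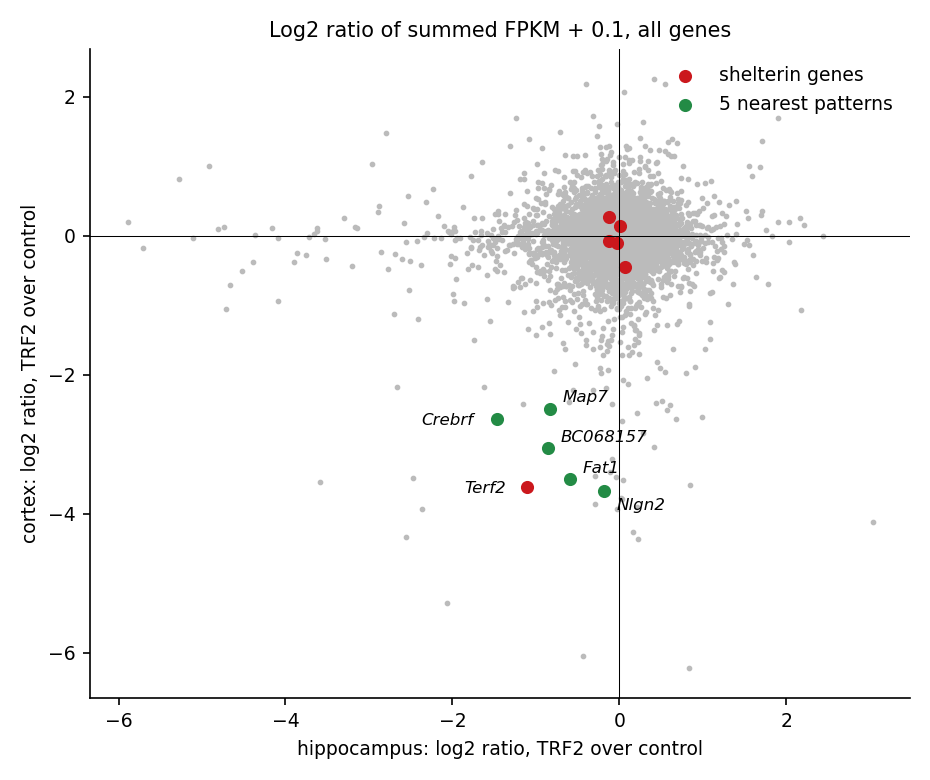
Log2 ratio of summed FPKM (0.1 FPKM added) of TRF2-depleted over control in hippocampus (horizontal) and cortex (vertical), 1 point per gene with at least 1 FPKM in both controls. Terf2 (red) and the 5 genes nearest to it by 3 ratios (green) lie toward the bottom, left of the vertical axis, with Nlgn2 close to that axis. The other 5 shelterin genes drawn (red) lie near the centre. Pot1b is below the minimum level and not drawn.

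The tissue labels and the cell makeup were checked with marker genes. Markers of cortex neurons summed to 46.5 and 47.4 FPKM in control and depleted cortex and to between 21.7 and 26.3 FPKM in hippocampus. Those listed for hippocampus neurons, Prox1, Zbtb20, Dsp, C1ql2 and Lct, summed to 4.73 and 5.42 FPKM in cortex. These genes summed to 37.0, 19.6 and 25.3 FPKM in control, depleted and DKO hippocampus, with 5 of 5 lower in the depleted group. In DKO, 1 of the 5 was higher than control, Zbtb20 (4.99 and 5.47 FPKM). The sums stand for neurons that express these genes, not for all hippocampus neurons. General neuron markers were at 867 and 924 FPKM in cortex and between 712 and 734 FPKM in hippocampus. In depleted cortex 1 of the 3 was higher, Snap25 (734 and 800 FPKM), and Rbfox3 (25.2 and 22.0 FPKM) and Syt1 (109 and 103 FPKM) were lower. Of the choroid plexus markers 6 of 6 were lower in depleted cortex, with a sum of 96.7 FPKM in control and 1.74 FPKM in the depleted group, where Otx2 and Kcne2 are listed at 0. In hippocampus their sum was 276 FPKM in control, 490 FPKM in the depleted group and 9.81 FPKM in DKO. Most of each sum was Ttr, at 93.3 and 1.15 FPKM in control and depleted cortex. Ttr stood at 264, 472 and 5.52 FPKM in control, depleted and DKO hippocampus. Each other choroid plexus marker was at most 1.12 FPKM in control cortex. Striatal markers were higher in 4 of 5 genes in depleted cortex (37.4 and 44.8 FPKM), and microglia markers lower in 5 of 5 (27.6 and 22.0 FPKM, with P2ry12 listed at 0). In hippocampus, striatal markers were higher than control in 5 of 5 genes in the depleted group and 4 of 5 in DKO. Microglia markers there were higher in 2 of 5 and 4 of 5. Astrocyte markers were higher in 1, 1 and 2 of 3 genes in depleted cortex, depleted hippocampus and DKO. In the same order, oligodendrocyte markers were higher in 1, 3 and 2 of 3, and endothelium markers in 2, 3 and 3 of 3. Dcx, the gene whose promoter is named for the Cre, was at 2.49 and 2.73 FPKM in control and depleted cortex and at 1.36, 1.43 and 1.10 FPKM in control, depleted and DKO hippocampus. The 4 newborn neuron markers, Dcx among them, summed to 10.6 and 11.9 FPKM in control and depleted cortex. In control, depleted and DKO hippocampus they summed to 21.8, 19.3 and 22.5 FPKM. Of these 4 genes, 2 were higher than control in depleted cortex, 2 in depleted hippocampus and 1 in DKO. Proliferation markers summed to at most 0.516 FPKM in any condition. These sums move between the same pooled groups as Terf2, and their part in its values was not tested.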

How the data were processed

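Total RNA from mouse cortex and hippocampus was sequenced, and per the submitters' processing notes CASAVA 1.8, TopHat2, Cufflinks and Cuffdiff were used with the build mm10. No source used here gives the other versions, the annotation or the strand setting. Per the file headers the deposited values are FPKM, which the authors pooled to 1 value per condition and coding-sequence row, with a p-value and a q-value from Cuffdiff. Both weigh a difference against variation as modelled by the authors' test. Nothing ties samples to animals, so this variation is between samples and not known to be between animals.

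FPKM was summed over the rows of each gene and log2 ratios were recomputed without a pseudocount unless stated. FPKM summed to between 159494 and 171147 per condition. Calls were made at a deposited q of at most 0.05, among rows the authors tested. The members, lists, tests and alternatives were chosen with earlier results of these data known. Genes named are the 7 members, up to 4 called members of each list or, with none called, the 2 of smallest p, the 5 genes nearest to Terf2, and markers. Genes overlapping a member were named, and a minimum on the mean of both conditions was used for ranks and ranges, after the data were seen. Alternatives covered the q threshold, the adjustment, pseudocounts of 0.1 and 1 FPKM, the most abundant row, a filter on low values and centring. Coordinates count from 1, and coding sequences come from GENCODE vM21, not the authors' annotation. Calculations used pandas 2.3.3 and numpy 2.4.6 in Python 3.11.15, scipy 1.17.1 for checks and matplotlib 3.10.9 for figures, and the adjustment and distance calculations were tested on simulated data.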

Additional observations from a re-analysis of the deposited data

How the results depend on the processing

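No paired analysis was possible because the deposited values are pooled over samples and carry no replicate number, and for the same reason no sample could be left out. With 1 FPKM added, the Terf2 log2 ratio was -1.93 in depleted cortex and -0.78 in DKO hippocampus, in place of -4.15 and -1.42, since the added value exceeds or nears the levels. Its sign was kept in all 20 alternative values. Apart from these, 1 of 204 alternative values differed by over 1.5 times, Terf1 in DKO with its most abundant row alone (log2 ratio -1.01). A sign changed in 3 values near 0 or resting on 1 row: Terf1 in depleted hippocampus with that row alone (-0.45), Terf2ip in DKO after centring (-0.01) and the median of the accessory factors in cortex after centring (0.01). All 40 alternative counts stayed at 0: those of called members at a q of 0.01 or 0.1, adjusted within each comparison and with low rows left out, and those of list rows at a q of 0.1 and with at least 1 FPKM in 1 condition. What depth limits cannot be given, as the read depth is unknown.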
